A study of Homo sapiens with 10 samples.

Results

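The GATA and RUNX factors are 10 genes, namely GATA1 to GATA6, RUNX1 to RUNX3 and CBFB, and their loci were examined in a map of accessible chromatin of MDA-MB-231 cells. A peak was taken as belonging to a locus where the deposited list names the gene as its nearest, or where it lies in the gene or within 50000 bases of either end. This gave 186 of 161934 listed peaks (0.115%). The cell line MDA-MB-231, established from a human breast cancer, is labelled triple negative, and accessibility was mapped by ATAC-seq, which marks open DNA by the insertions of the Tn5 transposase. The study holds 5 libraries of ARID1A knockout cells and 5 control libraries of the same line. ARID1A is a subunit of the SWI/SNF chromatin remodelling complex. The labels do not say whether the knockout cells are 1 clone or a pool, how the knockout was made, or whether the libraries come from separate cultures.

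The list analysed here has 1 row per peak for the whole series and no value per library. A peak may therefore come from knockout cells, control cells or both, no genotype contrast was made, and neither the knockout nor the depth of a library could be checked. The values below are single positions and lengths in build hg38, with no replicate error and no test. Copy number, which differs between regions in this aneuploid line, was not measured, and its part in any count of peaks was not tested. Among cell type markers, all 8 of 8 of a mesenchymal-like basal breast line had a peak within 1000 bases of their outermost annotated start, among them EGFR and VIM. The same held for 6 of 8 luminal markers, 3 of 7 leukocyte markers and 1 of 4 erythroid markers, against 74.1% of 18734 protein-coding genes. ESR1 and CDH1 were the luminal markers without one. Because most protein-coding genes have such a peak, these counts cannot check the cell line label.

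GATA factors bind the sequence GATA through zinc fingers. GATA1 and GATA2 direct blood development, GATA3 directs luminal breast cells and T cells, and GATA4, GATA5 and GATA6 act in heart and endoderm. RUNX factors bind DNA through the Runt domain and pair with CBFB, which strengthens that binding. RUNX1 is required for blood stem cells, RUNX2 for bone, and RUNX3 in T cells and sensory neurons. Each RUNX gene is transcribed from a distal promoter, P1, and a proximal one, P2, whose proteins differ at their amino end.

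The proximal RUNX promoters are shown first because all 3 are rich in CpG and 1 of them has no peak. Each line holds the 250 bases before the RefSeq start, 5′ to 3′ on the gene's strand, with CpG dinucleotides in capitals. The RUNX1 (chr21:34888700-34888949, minus strand) and RUNX2 stretches (chr6:45422025-45422274, plus strand) lay inside a peak. The RUNX3 stretch (chr1:24930277-24930526, minus strand) overlapped none. Sequences are from RefSeq on GRCh38.p14.
RUNX1 P2: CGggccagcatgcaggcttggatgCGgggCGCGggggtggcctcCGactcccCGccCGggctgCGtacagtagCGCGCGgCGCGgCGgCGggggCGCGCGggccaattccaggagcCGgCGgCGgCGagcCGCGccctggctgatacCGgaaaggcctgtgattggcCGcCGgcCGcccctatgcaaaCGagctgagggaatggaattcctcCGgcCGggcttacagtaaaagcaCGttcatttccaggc
RUNX2 P2: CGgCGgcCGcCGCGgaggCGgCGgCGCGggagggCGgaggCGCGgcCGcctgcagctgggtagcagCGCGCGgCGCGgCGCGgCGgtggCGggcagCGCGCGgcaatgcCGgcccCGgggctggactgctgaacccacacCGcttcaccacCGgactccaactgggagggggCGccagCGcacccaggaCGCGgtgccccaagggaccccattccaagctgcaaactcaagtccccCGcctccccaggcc
RUNX3 P2: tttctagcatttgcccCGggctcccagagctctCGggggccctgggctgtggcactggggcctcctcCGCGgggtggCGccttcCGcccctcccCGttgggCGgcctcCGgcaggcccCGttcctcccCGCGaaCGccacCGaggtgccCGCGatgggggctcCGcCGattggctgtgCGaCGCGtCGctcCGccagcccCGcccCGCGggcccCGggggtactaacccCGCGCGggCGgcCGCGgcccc

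The distal promoters of RUNX2 (chr6:45328080-45328329, plus strand) and RUNX3 (chr1:24965011-24965260, minus strand) are shown next because they carry the RUNX factors' own motif. Capitals mark TGTGGT or its reverse complement ACCACA, in the 250 bases before the start that the RefSeq promoter table gives. The RUNX2 stretch lay inside a peak and the RUNX3 stretch did not. The outermost RUNX3 start at 24965138, from which P1 distances are measured below, lies within the RUNX3 stretch.
RUNX2 P1: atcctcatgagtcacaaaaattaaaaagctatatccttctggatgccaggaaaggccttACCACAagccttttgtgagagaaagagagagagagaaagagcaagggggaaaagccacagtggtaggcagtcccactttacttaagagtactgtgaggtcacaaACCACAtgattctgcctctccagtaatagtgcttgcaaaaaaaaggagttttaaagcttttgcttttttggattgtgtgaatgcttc
RUNX3 P1: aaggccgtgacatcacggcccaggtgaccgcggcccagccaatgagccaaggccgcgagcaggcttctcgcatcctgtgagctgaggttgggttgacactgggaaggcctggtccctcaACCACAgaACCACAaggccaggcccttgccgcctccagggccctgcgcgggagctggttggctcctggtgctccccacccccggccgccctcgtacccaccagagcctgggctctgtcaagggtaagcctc

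The distal RUNX2 and RUNX3 windows also shared 18 bases in a row that hold the motif 2 times, given in capitals in the next pair of 30-base stretches. In RUNX2 the shared bases begin 15 bases into the transcript (chr6:45328338-45328367 holds the stretch). In RUNX3 they begin 133 bases before the start at 24965010 that the promoter table gives (chr1:24965120-24965149). The outermost RUNX3 start, 24965138, lies within the shared bases.
RUNX2 P1 shared: cacaaaCAACCACAGAACCACAAGtgcggt
RUNX3 P1 shared: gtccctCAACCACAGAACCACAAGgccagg

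Of 35116 RefSeq promoter windows of 300 bases (250 before to 50 after a start), 2 held these 18 bases on either strand, the RUNX2 and RUNX3 windows themselves. RUNX1 P1 has no window in this set, so its sequence was not searched. The comparison was made after the sequences had been read. The RUNX motif TGTGGT, searched on both strands, occurred at least 1 time in 13.1% of all windows and at least 2 times in 1.31%. The RUNX2 P1 window held 4 copies, 2 of them in the shared bases, and 4 or more were held by 5 of the 35116 windows. The RUNX3 P1 window held 2, both in the shared bases. A motif match describes letters and not a bound site.

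The RUNX genes differed in whether their promoters had a peak. Of the 6 RUNX promoters, 4 had a peak within 1000 bases, and in all 4 the peak covered the start itself. These were P1 and P2 of RUNX1 and P1 and P2 of RUNX2. Both RUNX3 promoters lacked one. Among RefSeq promoter starts of all protein-coding genes, 73.4% had a peak within 1000 bases.

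At RUNX1 (ENSG00000159216, chromosome 21, 34787801 to 35049302, minus strand), the P1 start at 35049302 lay in a peak of 1369 bases, 35048169 to 35049537. The P2 start at 34888699, 161 kb further into the gene, lay in a peak of 2467 bases, 34887984 to 34890450. The P2 peak was thus 1.8 times as long. It reached 1751 bases upstream of the start, while the P1 peak reached 235 bases upstream and lay mostly inside the gene. Separate peaks of 657 and 656 bases stood on either side of the P1 peak, and no other peak lay within 5000 bases of P2.

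At RUNX2 (ENSG00000124813, chromosome 6, 45328330 to 45551082, plus strand), P1 lay in a peak of 902 bases, 45327800 to 45328701. P2, 93.9 kb downstream at 45422275, lay in one of 2122 bases, 45421530 to 45423651, 2.35 times as long. P2 was therefore under the longer peak in both RUNX1 and RUNX2. Set against the longest start peak of each of the 13873 protein-coding genes that had one, the P2 peaks exceeded 98.1% (RUNX1) and 94.0% (RUNX2) of genes. The P1 peaks exceeded 60.0% and 21.1%. A lncRNA on the opposite strand, LOC124901324, starts 59 bases from the RUNX2 P2 start inside the same peak, so that peak cannot be given to RUNX2 alone.

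At RUNX3 (ENSG00000020633, chromosome 1, 24899511 to 24965138, minus strand), the peak nearest P1 was 954 bases long, 24966391 to 24967344, and ended 1253 bases upstream of the outermost start. The peak nearest P2 was 860 bases long, 24932021 to 24932880, and ended 1745 bases upstream of that start at 24930276. Both nearest peaks thus flanked their promoter on the upstream side. The stretch without a peak measured 10.6 kb around P1 and 4.9 kb around P2. RUNX3-AS1, a lncRNA that starts 181 bases from P2 on the other strand, also had no peak within 1000 bases of its start. With a window of 3000 bases both RUNX3 promoters would count as having a peak, and 82.1% of protein-coding genes then have one at their outermost start. A separate start of RUNX3 P1 in the promoter table, 24965010, was 1381 bases from a peak.

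**Figure D1:**
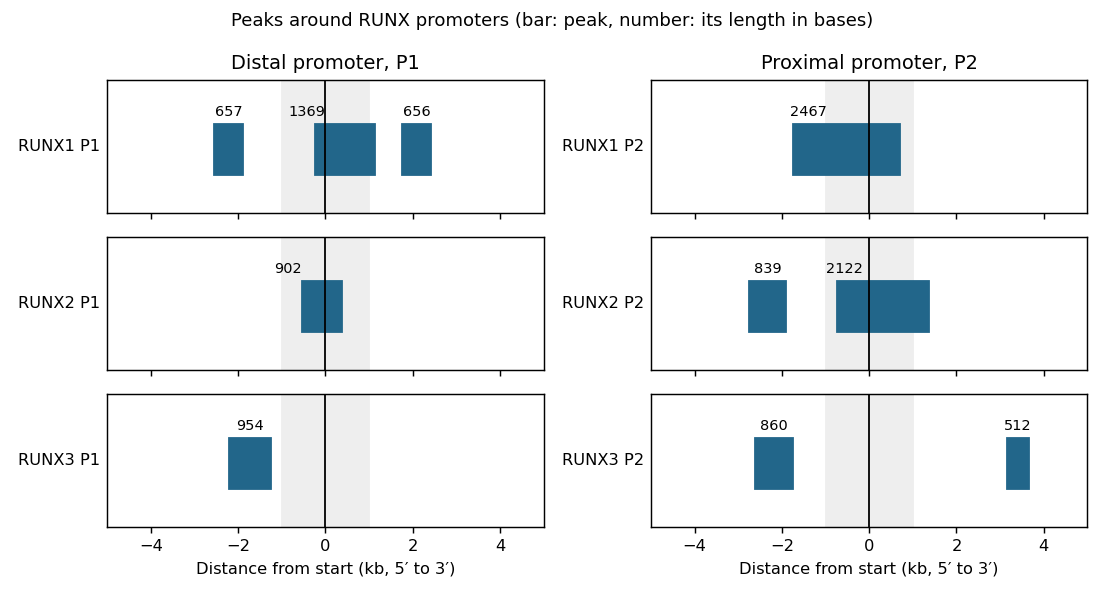
Peaks within 5 kb of the distal (P1, left) and proximal (P2, right) start of each RUNX gene, drawn 5′ to 3′ along the gene, with the distance from the start in kb on the horizontal axis. Bars are peaks with their length in bases, the black line is the start and the grey band spans 1000 bases on either side. RUNX1 and RUNX2 starts lie under peaks of 902 to 2467 bases and the RUNX3 starts do not.

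Inside the RUNX genes, peaks were spread differently. RUNX1 held 31 peaks in its body, RUNX2 13 and RUNX3 9. Leaving out those within 1000 bases of either promoter, RUNX1 had 13 peaks between P1 and P2 (0.809 per 10 kb) and 16 from P2 to the gene's end (1.59 per 10 kb). RUNX2 had 3 (0.319 per 10 kb) and 8 (0.621 per 10 kb). In both genes the part downstream of P2 was the denser. RUNX3 had 5 (1.43 per 10 kb) and 4 (1.3 per 10 kb), so the order was not seen there. Over the whole span RUNX3 had 1.37 peaks per 10 kb, RUNX1 1.19 and RUNX2 0.584, although the RUNX3 promoters had no peak.

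Of the intron peaks of RUNX1, 4 were 1000 bases or longer, the longest 1569 bases at 34807428 to 34808996. The longest of the 3 RUNX2 peaks between its promoters, 1398 bases at 45377147 to 45378544, covered the start of SUPT3H, a gene on the opposite strand that overlaps RUNX2. The longest RUNX3 body peak was 1020 bases at 24954753 to 24955772, in intron 1. A further 13 peaks name RUNX1 from 254 to 891 kb upstream of its RefSeq start. They lie in long transcripts that the deposited annotation gives to RUNX1, and RefSeq does not extend the gene there.

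CBFB (ENSG00000067955, chromosome 16, 67029149 to 67101058, plus strand), the shared partner of the RUNX proteins, had a start peak of 1624 bases, 67028500 to 67030123. It was longer than 77.6% of start peaks of protein-coding genes. The body held 2 other peaks, of 323 and 765 bases, which made 3 in the span, against a median of 2 over protein-coding genes. No peak lay from 67056325 to 67103966, a stretch of 47.6 kb. Of the 14 peaks within 50 kb, 11 were listed for other genes. All 3 other protein-coding genes of known strand that start in that window, CES4A, PHAF1 and B3GNT9, had a start peak.

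Among the GATA genes, 3 of 6 had a start peak within 1000 bases of the outermost start. GATA6 had the longest and GATA5 the shortest, with GATA3 between them, while GATA1, GATA2 and GATA4 had none. Over all 10 genes the count was 6, against 74.1% of protein-coding genes. The start itself was covered in 5 genes, against 65% of protein-coding genes, GATA5 being the one with a peak beside its start. Peaks of the median length or longer stood at 5 starts, against 68.5%, and GATA5 was again the one lost.

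**Figure D2:**
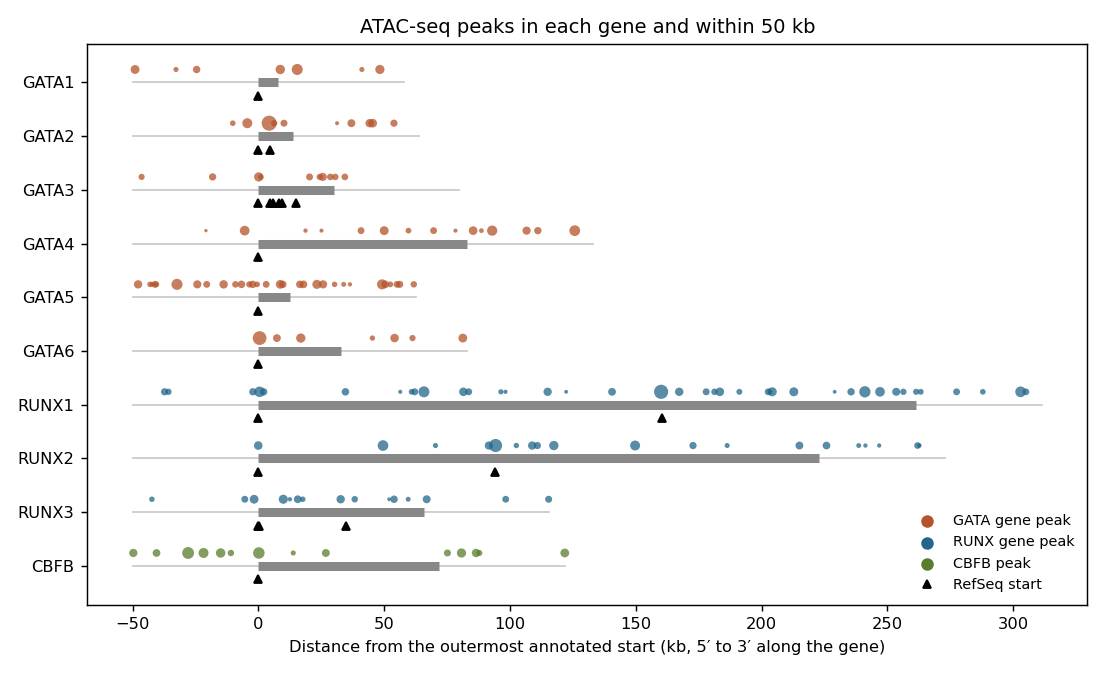
Peaks in each of the 10 genes and within 50 kb of either end, by distance in kb from the outermost annotated start, 5′ to 3′ along the gene. Thick grey bars are the genes, thin lines the flanks, dots the centres of peaks (area in proportion to length) and triangles RefSeq starts. RUNX1 has 39 peaks, GATA5 30, and GATA1 and GATA6 have 7 each.

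GATA3 (ENSG00000107485, chromosome 10, 8045333 to 8075198, plus strand) had a start peak of 1050 bases, 8044912 to 8045961, and a second of 389 bases just downstream. This covered the outermost of 6 RefSeq starts. The other 5, from 8049854 to 8060457, had no peak within 1000 bases. They fell in a stretch of 18.9 kb without any peak, 8046471 to 8065352. The start of GATA3-AS1, a lncRNA on the opposite strand that begins inside the GATA3 span at 8053484, lies in it as well, 7014 bases from the nearest peak. The stretch includes the starts at 8049854, 8053641 and 8054688, which lie in CpG-rich sequence. The sequences before the outermost start (chr10:8045083-8045332, covered) and before the start at 8054688 (chr10:8054438-8054687, not covered) are set side by side, both on the plus strand with CpG in capitals.
GATA3 outermost: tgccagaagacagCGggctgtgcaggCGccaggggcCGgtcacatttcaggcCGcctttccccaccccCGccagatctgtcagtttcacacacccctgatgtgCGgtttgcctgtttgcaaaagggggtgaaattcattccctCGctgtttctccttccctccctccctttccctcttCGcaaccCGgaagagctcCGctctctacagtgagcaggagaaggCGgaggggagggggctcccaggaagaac
GATA3 inner: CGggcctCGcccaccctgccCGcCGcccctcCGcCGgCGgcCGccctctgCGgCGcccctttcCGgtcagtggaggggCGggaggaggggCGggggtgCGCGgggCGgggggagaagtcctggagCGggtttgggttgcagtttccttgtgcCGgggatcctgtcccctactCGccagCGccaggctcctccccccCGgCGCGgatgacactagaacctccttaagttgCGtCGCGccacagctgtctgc

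Beyond that stretch, GATA3 had a group of 6 peaks over 14.6 kb, from 20.0 to 34.6 kb past the outermost start, running from intron 4 across the last exons to the intergenic sequence behind the gene. Their lengths were 491 to 813 bases. All 10 peaks within 50 kb of GATA3 named it as the nearest gene. A further 7 named it from 56.0 to 104 kb upstream, within the neighbouring gene TAF3, and were 210 to 668 bases long.

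Set against the other 9 genes, GATA3 ranked from 4 to 9 on the measures examined. Its 10 peaks within 50 kb tied with GATA2 for rank 7 of 10, and its density of 0.77 peaks per 10 kb also ranked 7. Peaks covered 4.67% of these bases, rank 9. Its start peak ranked 4 among the 6 genes with one and was longer than 32% of start peaks of protein-coding genes. Inside the gene span it had 6 peaks, rank 5. GATA genes known for other lineages lay on both sides of GATA3 in each of these orders except the share of bases, where every other GATA gene was higher. No test was made on 1 gene.

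GATA6 (ENSG00000141448, chromosome 18, 22169589 to 22202528, plus strand) had the longest start peak of the 10 genes, 2326 bases at 22168880 to 22171205, longer than 96.8% of start peaks of protein-coding genes. It also covered the start of GATA6-AS1, a lncRNA that runs the opposite way from 621 bases upstream. No other peak lay within the 50 kb upstream, and 4 lay within 50 kb downstream. The density of 0.527 peaks per 10 kb was the lowest of the 10 genes but stood at percentile 25.6 of protein-coding genes, inside their interquartile range.

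GATA5 (ENSG00000130700, chromosome 20, 62463497 to 62475995, minus strand) had the shortest start peak of the 6. That peak, 62476322 to 62476720, was 399 bases long, shorter than nearly all start peaks of protein-coding genes (percentile 4.14), and stood 327 bases upstream of the start. Its surroundings were the densest of the 10, with 30 peaks within 50 kb, or 2.67 per 10 kb (percentile 99.9 of protein-coding genes). Of the 30, 24 were listed for other genes, and 3 lay in GATA5 itself. A lncRNA, LOC105372711, starts 4457 bases from GATA5 and had a peak of 499 bases within 1000 bases of its start. Peaks covered 17.4% of the bases there, against a median of 6.01% over protein-coding genes.

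GATA2 (ENSG00000179348, chromosome 3, 128479422 to 128493201, minus strand) had no peak at its outermost start but the longest single peak of any of the 10 loci, 2778 bases at 128487555 to 128490332. That peak covered the inner RefSeq start at 128488530 and the start of GATA2-AS1, 673 bases away on the other strand. The outermost start, 4671 bases further upstream, was 2869 bases from this peak. The listed start peak was thus at the inner RefSeq start of GATA2 and at the outermost one of GATA3.

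GATA1 (ENSG00000102145, chromosome X, 48786590 to 48794311, plus strand) had no peak in its body, as had 11.5% of protein-coding genes, and the list names it as nearest gene for 0 peaks. The stretch without a peak measured 32.4 kb, 48762350 to 48794713, and ended 403 bases behind the gene. Of 7 peaks within 50 kb, those of 679, 1495 and 1050 bases lay within 1000 bases of the starts of GLOD5, HDAC6 and PCSK1N. GATA4 (ENSG00000136574, chromosome 8, 11676935 to 11760002, plus strand) also lacked a start peak, the nearest ending 4899 bases upstream. Its body held 7 peaks of 202 to 973 bases. None lay within 1000 bases of its outermost RefSeq start or of the starts of its transcripts in the list. Inner RefSeq starts of GATA4 were not examined.

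**Figure D3:**
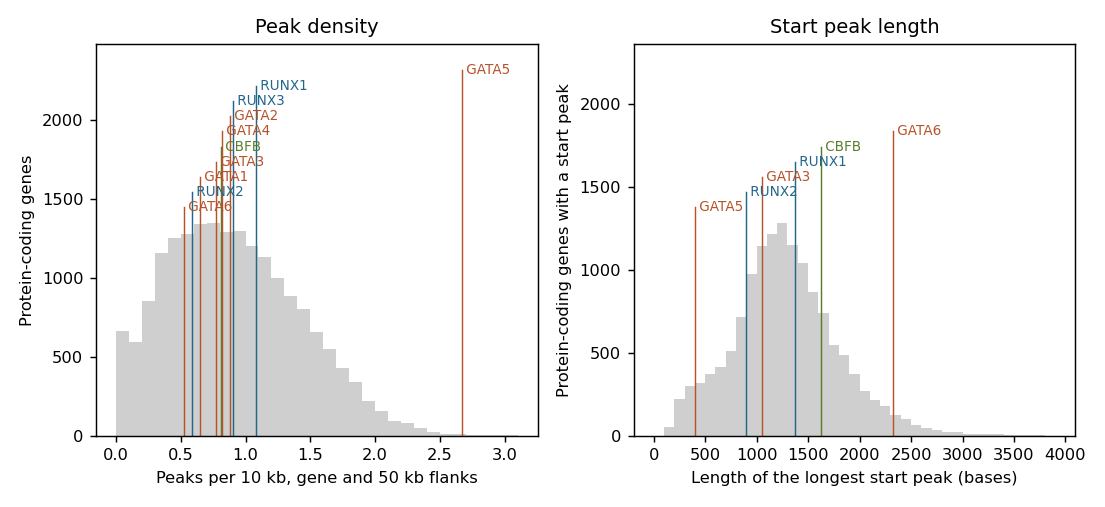
Left, peaks per 10 kb in each gene with 50 kb on either side; right, length in bases of the longest start peak. Grey bars count protein-coding genes (18734 left, 13873 with a start peak right) and coloured lines mark the 10 genes, or the 6 with a start peak. GATA5 stands far right at left (2.67) and far left at right (399 bases), and GATA6 stands far right at right (2326 bases).

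Apart from GATA5, densities were ordinary. They ran from 0.527 to 1.08 peaks per 10 kb, with a median over the 10 genes of 0.817, against 0.869 over protein-coding genes (interquartile range 0.516 to 1.27). RUNX1 led by number, with 39 peaks within 50 kb (percentile 98.2), but its density of 1.08 per 10 kb stood at percentile 64.0, since the gene spans 261502 bases. With flanks of 100000 bases the order turned, with 53 peaks around GATA5 and 46 around RUNX1. RUNX2, of 222753 bases, had 19 peaks and a density at percentile 30. By the deposited classes, the 166 peaks within 50 kb were 69 in introns, 56 at promoters of any gene, 32 intergenic and 9 of other kinds. The other 20 of the 186 peaks, named for GATA3 or RUNX1, lay farther away.

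The members' promoters were also grouped by CpG content. A window was called CpG-rich where GC exceeded 50% and the ratio of observed to expected CpG exceeded 0.6. Over protein-coding genes, 90.3% of 13249 CpG-rich windows and 48.1% of 8883 others had a peak within 1000 bases of their start. The windows of 7 of the 10 genes, 15 in all, could be used, which leaves out GATA4, GATA5, CBFB and RUNX1 P1. Of 8 CpG-rich ones 3 had a peak (RUNX1 P2, RUNX2 P2 and GATA6), and of 7 others 3 had one (RUNX2 P1, GATA2 inner and GATA3 outermost). The last 2 stood just under the limit, with ratios of 0.59 and 0.58. The starts of 1 gene share a locus, so these windows are not independent.

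RUNX3 P2 was as CpG-rich as the others, with 76% GC and a ratio of 0.88, against 76% and 0.9 at RUNX2 P2 and 72% and 1.04 at RUNX1 P2. The GATA3 starts at 8049854, 8053641 and 8054688 had ratios of 0.63, 0.87 and 0.8 and lay 3384, 7171 and 8218 bases from a peak. The outermost GATA2 start, also CpG-rich with a ratio of 0.74, lay 2869 bases from one. At the other end, RUNX2 P1 had a ratio of 0.15 and 42.7% GC and lay in a peak. DNA methylation was not measured. The GATA motif, searched as AGATAA and TGATAA on both strands, was in 0 of the 15 windows and in 16.3% of all windows. The AP-1 motif TGANTCA was in 2 (RUNX2 P1 and the GATA3 start at 8060457), and in 7.71% of all.

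**Figure D4:**
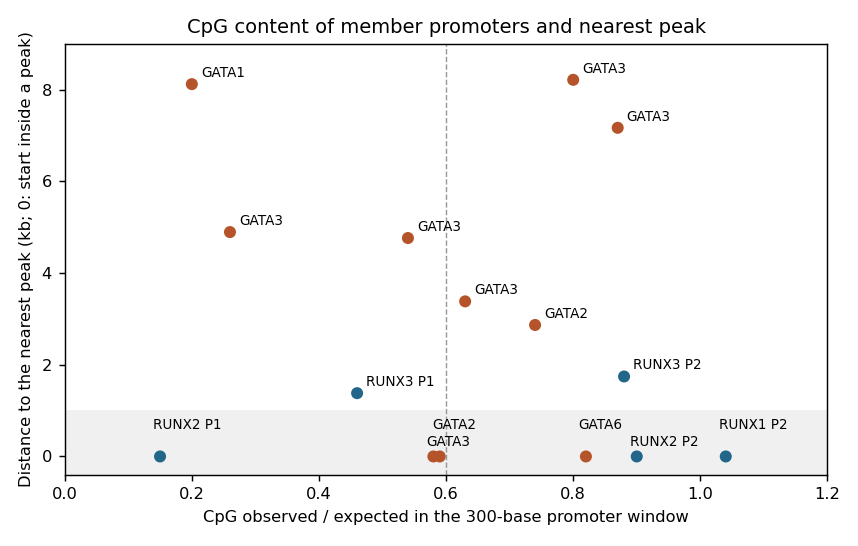
Each point is 1 of the 15 RefSeq promoter windows of the members, by its ratio of observed to expected CpG (horizontal) and the distance in kb from its start to the nearest peak (vertical). Points in the grey band have a peak within 1000 bases, and the dashed line marks the ratio of 0.6. RUNX3 P2 (0.88), the outermost GATA2 start (0.74) and the GATA3 starts at 0.63, 0.8 and 0.87 lie above the band although CpG-rich. RUNX2 P1 (0.15) lies in the band.

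Genes that work with these factors were counted in the same way, from lists named for their known roles. Of GATA cofactors and relatives, 10 of 12 had a start peak, the longest at ZFPM2 (2168 bases), a cofactor that binds the GATA zinc finger, and LDB1 (2142 bases), an adaptor in GATA complexes. LMO1 and TAL1 had none. Of RUNX corepressors and partners, 11 of 12 had one, led by RUNX1T1 (2932 bases) and YAP1 (2421 bases), with WWTR1 the exception at its outermost start. Of luminal partners and targets of GATA3, 9 of 11 had one, led by MUC1 (2261 bases) and PGR (2212 bases). ESR1 was among those without one at the outermost start, but its span held 28 peaks. Inner starts of the listed genes were not examined. KRT8 and KRT18 shared 1 peak of 1436 bases and each counted. The share over protein-coding genes was 74.1%.

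The factors' other lineages were covered by 4 lists, to be read beside the same 74.1% over protein-coding genes. Of erythroid and megakaryocyte genes driven by GATA1, 4 of 9 had a start peak, among them EPOR (1646 bases) and GFI1B (1290 bases). KLF1, ALAS2 and ITGA2B were among those without. Of endoderm and heart genes driven by GATA4 to GATA6, 3 of 10 had one, with FOXA2 (2488 bases) and NKX2-5 (689 bases) the longest and none at TBX5, HAND2, MYH6 or NPPA. Of bone genes linked to RUNX2, 5 of 9 had one, with BGLAP (1656 bases) and SP7 (1139 bases) leading. SPP1, IBSP and DLX5 were among those without. Of leukocyte genes regulated by RUNX1 or RUNX3, in either direction, 5 of 8 had one, led by ZBTB7B (1722 bases) and CD8A (1669 bases). None was found at SPI1, ITGAE and IL3. With a window of 3000 bases the 4 lists, in this order, had 6 of 9, 5 of 10, 7 of 9 and 8 of 8. The share over protein-coding genes was then 82.1%. These counts were not tested, and expression was not measured.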

How the data were processed

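ATAC-seq libraries of 5 ARID1A knockout and 5 control samples of MDA-MB-231 were grouped by their labels. Per the submitters' processing notes, Bowtie2 2.3.5.1, MACS2 2.2.6 and build hg38 were used. How peaks were thresholded, merged over libraries and annotated is not given in the sources used here. The deposited list gives, per the file headers, other values than counts, namely positions, lengths and distances in bases, in 17 columns, and 0 columns with a value per library. Depth is unknown, and no genotype contrast was made.

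Gene spans, starts and promoter sequences came from RefSeq tables of GRCh38.p14, which shares its chromosome coordinates with hg38. Strand came from the promoter table (15813 protein-coding genes on chromosomes 1 to 22 and X) or else from the listed transcript that overlapped the gene best, by at least 0.5 of the union (2921 genes). Where both gave a strand, they matched in 99.3%. Ensembl identifiers of the members were checked by position, except that of GATA1, which is the nearest gene of 0 rows. A start peak lies within 1000 bases of the gene's outermost RefSeq boundary. Percentiles split ties evenly. The lookup was tested with 1000 random queries of simulated intervals, and all 1000 matched a brute-force count.

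The members and lists were chosen with earlier results of these data known. The genes named are the 10 members, RNA genes that start within 5000 bases of a member's start, and, of each list, at most 2 genes whose start peaks are longest and at most 4 that lack one. Some genes that this rule would name are not reported here by name. The limits for CpG-rich windows, the motifs and the shared stretch were chosen after the data were seen. Of 76 pathway genes, 71 had a strand and 5 were left out of the counts. Alternatives were other flanks, start windows, peak lengths and measures. Computation used Python 3.11.15, numpy 2.4.6, pandas 2.3.3 and matplotlib 3.10.9.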

Additional observations from a re-analysis of the deposited data

How the results depend on the processing

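No paired analysis was possible because values by library are lacking here, which also prevented the planned replicate block and leave-one-out values. The 186 peaks at the loci became 141 with flanks of 20000 bases, 295 with flanks of 100000, 96 when only rows that name a member were taken, and 116 among peaks of the median length of 539 bases or longer. Counts around single genes moved as well: with flanks of 20000 and 100000 bases, GATA5 had 14 and 53 peaks (30 as reported), GATA1 2 and 16 (7) and CBFB 9 and 30 (14). Members with a start peak, 6 as reported, were 5 when the peak had to cover the start, 8 with a window of 3000 bases and 5 among longer peaks. The shares over protein-coding genes were 74.1% as reported, then 65%, 82.1% and 68.5% in that order. At any annotated start the count was 7, with no share over protein-coding genes computed to read it against. That setting adds starts of transcripts named in the peak list, and adding starts can only raise the count. The 4 RUNX promoters with a peak stayed 4 when the peak had to cover the start and among longer peaks, and became 6 with 3000 bases. The rank of GATA3 ran from 5 to 9 over the 6 measures tried, of which peaks inside the span and the share of bases were added after the data were seen. Pathway genes with a start peak rose from 47 to 57 with 3000 bases. Edges and lengths of peaks depend on the depth and the caller's threshold, which are unknown here, so where a peak is absent, the list merely has no entry.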
